A study of Homo sapiens with 24 samples.

Results

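OSMR, LIFR, IL6R and JAK2 encode 3 cytokine receptor chains and 1 tyrosine kinase of the gp130 signalling system. Their transcripts were followed in HepG2 cells, an established line grown from a human liver tumour, which still makes many products of hepatocytes. The members are the probe sets whose annotated symbol is OSMR, LIFR, IL6R or JAK2. Each gene had 1 such probe set, so 4 probe sets of 53617, and 4 genes of the 14884 tested, are described. They are probe set 16984244 for OSMR and 16995500 for LIFR, both on chromosome 5, 16671457 for IL6R on chromosome 1, and 17083319 for JAK2 on chromosome 9. Treatment was with 1 uM of BRD8518, a compound named only by this code, or with 100 ng/mL of oncostatin M (OSM), a cytokine of the interleukin 6 family, and vehicle wells were the control. All groups, OSM included, had DMSO at 0.25% in the medium. The BRD8518 groups held 3 arrays at 1 h, 2 at 6 h and 3 at 24 h. The OSM groups held 3 arrays each, at 1 h and 24 h. The DMSO groups held 3 arrays at 1 h, 4 at 6 h and 3 at 24 h. OSM at 6 h was not analysed here. The treatments were studied as inducers of TRIB1, and the transcriptional response to each was compared with vehicle. Nothing in the labels says that the replicates of a group were separate cultures, so the p-values rest on a spread among arrays that may be only technical. Fewer cells carrying a transcript and less transcript per cell cannot be told apart in bulk RNA.

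Cytokines of the interleukin 6 family signal through the shared chain gp130. IL6R binds interleukin 6 and brings it to gp130 but does not signal itself. OSMR and LIFR are signalling chains that pair with gp130: OSMR receives oncostatin M, and LIFR receives leukaemia inhibitory factor and, in humans, also oncostatin M. JAK2 is 1 of the Janus kinases that sit on the inner tails of these chains and phosphorylate them, which brings in STAT factors. In hepatocytes this route is known for driving the acute phase proteins, and SOCS proteins shut it off again.

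Values are log2 expression levels from robust multiarray averaging (RMA), and a change is a difference of 2 group means on that scale, with its standard error (SE). Tests are limma's, across all 14884 genes, with Benjamini-Hochberg adjustment within a comparison, and a gene passed where its adjusted p was under 0.05. Whether the arrays of 2 groups overlapped is given as description, and the share of all genes without overlap was not counted. Of 15 hepatocyte markers listed, 12 were measured, with means over the 24 arrays from 7.75 (APOC3) to 12.5 (APOB). Arrays of 1 group correlated at 0.9948 or more over all genes, except that DMSO 6 h replicate 2 stood apart (lowest r 0.973). The members' changes against DMSO at 6 h are therefore also given without it, while the 6 h values of other genes include it. The labels carry a position code whose letter they do not explain. Letter D held all 6 h arrays, letter C held BRD8518 1 h replicates 2 and 3, letter A held all 24 h arrays but DMSO 24 h replicate 3, and letter B held the rest. The members' changes against DMSO at 1 h and 24 h are therefore also given within letter B or letter A. The OSM and DMSO arrays at 1 h all carry letter B, so their differences already lie within it.

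The upstream sequences of OSMR and LIFR are shown because these neighbours in the genome moved in opposite directions with OSM. A short stretch at the start of OSMR and of IL6R, which both rose with OSM, is shown because it holds a motif match. Whether any match has a part in the changes was not tested. They come from RefSeq on build GRCh38.p14, are written 5′ to 3′ on the strand of the gene, and are numbered from the annotated start, whose first base is 1. The whole windows run from -250 to 50. Capitals mark matches to 1 of 4 motifs searched on both strands: TTCNNNGAA for STAT factors, TGANTCA for AP-1, TTGCNNAA for C/EBP and GCGTGGGCG for EGR1. No motif letters overlap in the stretches shown. The OSMR window holds a C/EBP match at -73 to -66, on chr5:38845762-38846011, plus strand. The window of the most upstream of 3 LIFR starts holds a STAT match at -165 to -157, on chr5:38595406-38595655, minus strand. The OSMR and IL6R windows each hold an AP-1 match just inside the transcript, at 4 to 10 in OSMR (chr5:38846005-38846031, plus strand) and at 38 to 44 in IL6R (chr1:154405370-154405392, plus strand). The upstream bases of IL6R hold no match to the 4 motifs and are not printed.
OSMR upstream: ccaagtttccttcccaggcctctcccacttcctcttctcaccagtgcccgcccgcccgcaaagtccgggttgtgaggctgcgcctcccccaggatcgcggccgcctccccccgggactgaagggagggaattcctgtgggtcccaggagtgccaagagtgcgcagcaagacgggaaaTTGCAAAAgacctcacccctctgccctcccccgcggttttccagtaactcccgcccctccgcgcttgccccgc
LIFR upstream: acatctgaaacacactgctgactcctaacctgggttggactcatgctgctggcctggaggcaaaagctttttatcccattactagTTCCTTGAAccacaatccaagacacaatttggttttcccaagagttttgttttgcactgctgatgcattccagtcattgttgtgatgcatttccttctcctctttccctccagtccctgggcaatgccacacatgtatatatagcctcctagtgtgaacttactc
OSMR at its start: gccccgcagcTGATTCAtagccccggc
IL6R at its start: tccgccgctcTGAGTCAtgtgcg

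Among the 9 annotated start windows of the 4 genes, the STAT, AP-1 and C/EBP motifs each matched in 2 and the EGR1 motif in 0. Over all 35116 windows of the table the shares were 7.66% for STAT, 7.71% for AP-1, 10.5% for C/EBP and 0.795% for EGR1. A second LIFR start has a STAT match at -182 to -174 and a C/EBP match at -31 to -24. The 4 JAK2 windows have none of the 4 motifs, which says only that these letters are not in those windows.

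With OSM, OSMR was 2.30-fold higher and LIFR 2.08-fold lower than in DMSO at 24 h, while IL6R was 1.83-fold higher. With BRD8518 at 24 h, IL6R was 4.73-fold higher and JAK2 2.38-fold higher, and neither OSMR nor LIFR passed. IL6R was thus the receptor that rose with both treatments, OSMR and LIFR passed with OSM, and JAK2 passed with BRD8518. Both treatments were set against the same DMSO arrays.

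**Figure D1:**
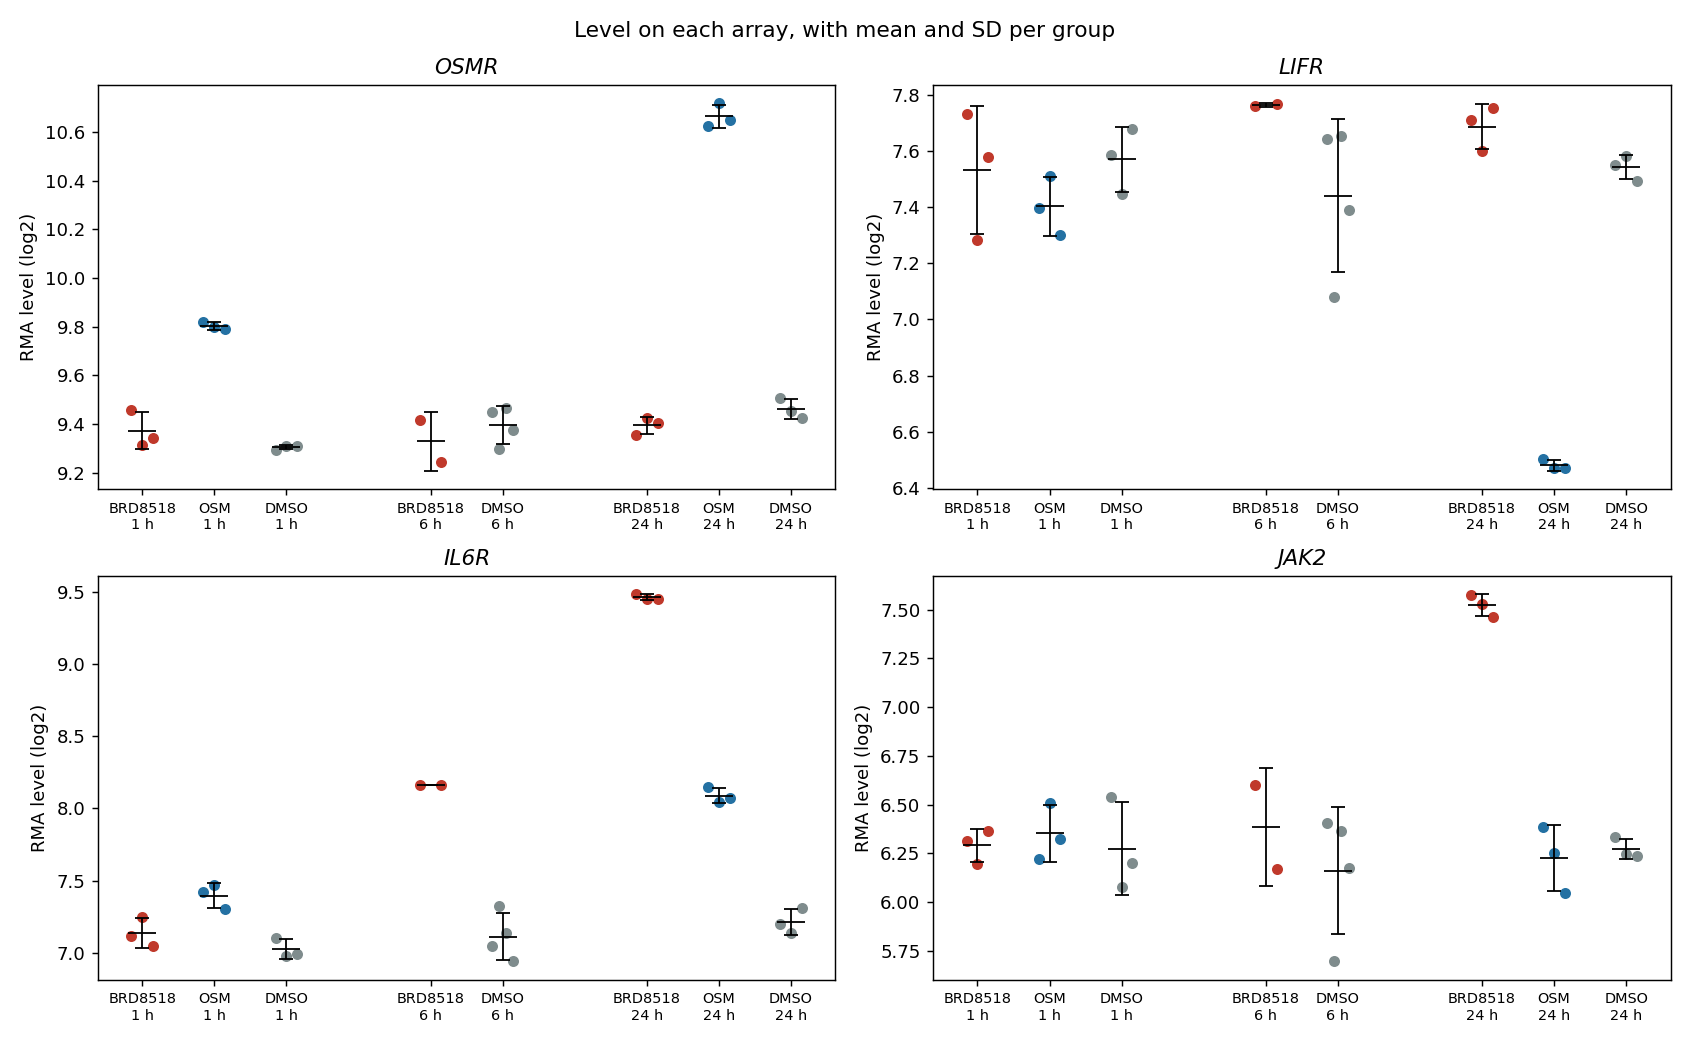
RMA levels (log2) of OSMR, LIFR, IL6R and JAK2 on each of the 24 arrays, grouped by time and, within a time, by treatment. Points are arrays, the long bar is the group mean and the whiskers are 1 SD, and each panel has its own axis, which does not start at 0. OSM lifts OSMR to 10.67 and lowers LIFR to 6.48 at 24 h, and BRD8518 lifts IL6R to 9.46 and JAK2 to 7.52.

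OSMR responded to OSM within the first hour. It stood at 9.82, 9.80 and 9.79 on the OSM 1 h arrays, against 9.29, 9.31 and 9.31 on the DMSO 1 h arrays. At 24 h it stood at 10.63, 10.72 and 10.65 with OSM, against 9.51, 9.45 and 9.43 with DMSO. Every OSM array lay above every DMSO array, and the 24 h OSM arrays lay above the 1 h OSM arrays. The change was 0.50 ± 0.07 (SE) at 1 h (1.41-fold, limma, Benjamini-Hochberg adjusted p = 3.81e-05). It was 1.20 ± 0.07 at 24 h (adjusted p = 2.80e-11), where 0.537% of all genes moved as far or farther. Within letter A the 24 h change was 1.18.

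OSMR did not pass with BRD8518 at any time. It stood at 9.46, 9.32 and 9.34 with BRD8518 at 1 h, at 9.42 and 9.24 at 6 h, and at 9.36, 9.42 and 9.40 at 24 h. The 6 h DMSO arrays had 9.45, 9.30, 9.47 and 9.37. The BRD8518 arrays overlapped the DMSO arrays at 6 h, lay just above them at 1 h and just below them at 24 h. The share of all genes placed so was not counted, and no change is read from it. The changes were 0.07 ± 0.07 at 1 h (95% confidence interval -0.07 to 0.21), -0.07 ± 0.07 at 6 h (-0.22 to 0.08) and -0.07 ± 0.07 at 24 h (-0.21 to 0.07). Without DMSO 6 h replicate 2 the OSMR change at 6 h was -0.10, and without BRD8518 6 h replicate 2 it was 0.02. Within letter B the OSMR change at 1 h was 0.15, which rests on 1 BRD8518 array, and within letter A the change at 24 h was -0.09.

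LIFR fell with OSM at 24 h and did not pass at 1 h. At 1 h it stood at 7.40, 7.51 and 7.30 with OSM, against 7.59, 7.44 and 7.68 with DMSO. At 24 h it stood at 6.50, 6.47 and 6.47 with OSM, against 7.55, 7.58 and 7.49 with DMSO. The 1 h arrays of the 2 groups overlapped, and the 24 h OSM arrays were the lowest LIFR values of all 24 arrays. LIFR differed by -0.17 ± 0.12 at 1 h (adjusted p = 0.74) and by -1.06 ± 0.12 at 24 h (limma, Benjamini-Hochberg adjusted p = 2.04e-06). At 24 h, 0.705% of all genes moved as far or farther, and within letter A the change was -1.08.

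With BRD8518, LIFR did not pass at any time. It stood at 7.73, 7.28 and 7.58 on the BRD8518 1 h arrays, at 7.76 and 7.77 at 6 h, and at 7.71, 7.60 and 7.75 at 24 h. On the 6 h DMSO arrays it stood at 7.64, 7.08, 7.65 and 7.39. At 6 h and 24 h the BRD8518 arrays lay above all DMSO arrays of their time by small margins, and at 1 h the groups overlapped. How many of all genes were separated in this way was not counted, so no change is read from it. The changes were -0.04 ± 0.12 at 1 h, 0.32 ± 0.13 at 6 h (limma, Benjamini-Hochberg adjusted p = 0.11, 95% confidence interval 0.05 to 0.59) and 0.14 ± 0.12 at 24 h (-0.11 to 0.40). Without DMSO 6 h replicate 2, which held the lowest LIFR value of its group, the 6 h change was 0.20 ± 0.11. Without DMSO 6 h replicate 3, LIFR passed at 0.39 (adjusted p = 0.048). At 1 h the LIFR change was 0.16 within letter B, which rests on BRD8518 replicate 1, and at 24 h it was 0.12 within letter A.

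IL6R rose with both treatments. On the BRD8518 arrays it stood at 7.12, 7.25 and 7.05 at 1 h, at 8.16 on both arrays at 6 h, and at 9.48, 9.45 and 9.45 at 24 h. On the DMSO arrays it stood at 7.10, 6.98 and 6.99 at 1 h, at 7.05, 7.33, 7.14 and 6.94 at 6 h, and at 7.20, 7.14 and 7.31 at 24 h. BRD8518 and DMSO overlapped at 1 h and stood clearly apart at 6 h and 24 h. The BRD8518 change was 0.11 ± 0.09 at 1 h, 1.05 ± 0.09 at 6 h (limma, Benjamini-Hochberg adjusted p = 2.74e-08) and 2.24 ± 0.09 at 24 h (adjusted p = 1.51e-14). At 24 h, 0.269% of all genes moved as far or farther. Without DMSO 6 h replicate 2 the IL6R change at 6 h was 1.12. Within letter B the change at 1 h was 0.09, from 1 BRD8518 array, and within letter A that at 24 h was 2.29.

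With OSM, IL6R stood at 7.42, 7.47 and 7.30 at 1 h and at 8.15, 8.05 and 8.07 at 24 h. These arrays lay above all DMSO arrays of their time. The change was 0.37 ± 0.09 at 1 h (limma, Benjamini-Hochberg adjusted p = 0.0154) and 0.87 ± 0.09 at 24 h (adjusted p = 2.20e-07). The 1 h call is narrow: IL6R did not pass without OSM 1 h replicate 1 (0.36), OSM 1 h replicate 2 (0.34), DMSO 1 h replicate 2 (0.35) or DMSO 1 h replicate 3 (0.35). Within letter B, which holds all 6 of those arrays, the change was 0.37, and within letter A at 24 h it was 0.92.

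JAK2 rose late with BRD8518. It stood at 6.31, 6.19 and 6.36 with BRD8518 at 1 h, at 6.60 and 6.17 at 6 h, and at 7.58, 7.53 and 7.46 at 24 h. The DMSO arrays had 6.54, 6.08 and 6.20 at 1 h, 6.40, 5.69, 6.37 and 6.18 at 6 h, and 6.33, 6.25 and 6.24 at 24 h. The BRD8518 24 h arrays were the highest of all 24, and the groups overlapped at 1 h and 6 h. The change was 0.02 ± 0.15 at 1 h, 0.22 ± 0.16 at 6 h (95% confidence interval -0.11 to 0.56) and 1.25 ± 0.15 at 24 h (limma, Benjamini-Hochberg adjusted p = 9.90e-07). At 24 h, 1.91% of all genes moved as far or farther, and within letter A the change was 1.23. DMSO 6 h replicate 2 held the lowest JAK2 value of all arrays, and without it the 6 h change was 0.07. Within letter B the JAK2 change at 1 h was 0.04, from 1 BRD8518 array.

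JAK2 did not pass with OSM. It stood at 6.22, 6.51 and 6.32 at 1 h and at 6.38, 6.25 and 6.04 at 24 h, overlapping DMSO at both times. JAK2 differed by 0.08 ± 0.15 at 1 h (95% confidence interval -0.24 to 0.40) and by -0.05 ± 0.15 at 24 h (-0.36 to 0.27). Its arrays spread more than those of OSMR, with an SD of 0.33 among the 4 DMSO 6 h arrays for JAK2, against 0.08 for OSMR. The intervals for JAK2 are accordingly wider. Within letter A the JAK2 change with OSM at 24 h was -0.06.

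**Figure D2:**
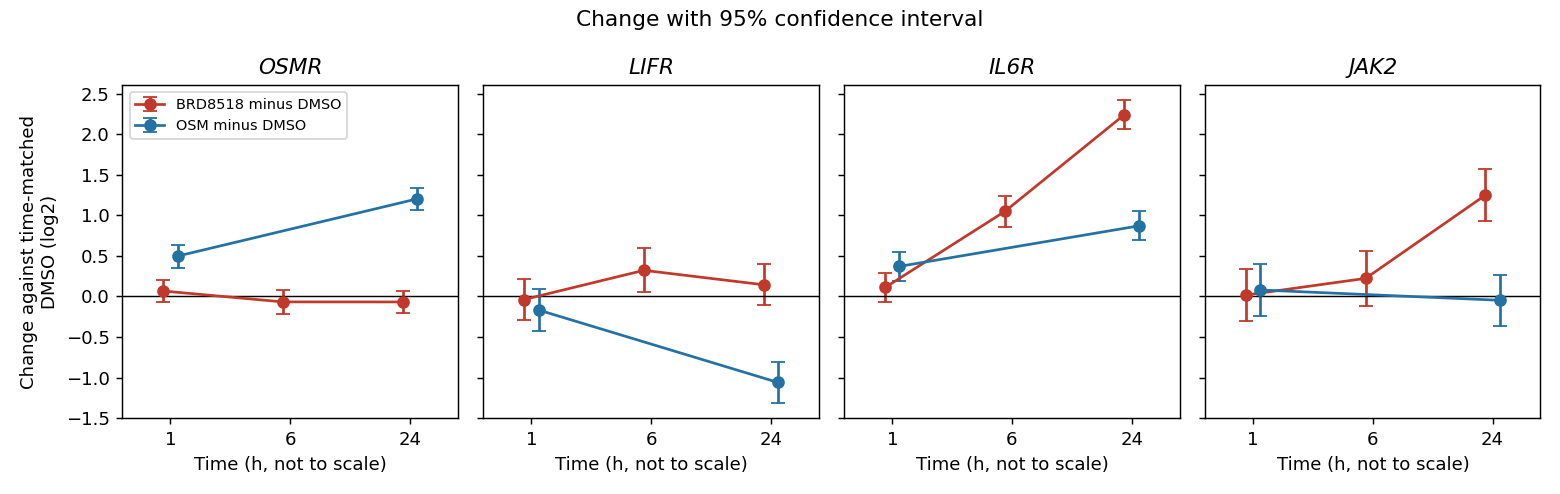
Change against time-matched DMSO (log2) for OSMR, LIFR, IL6R and JAK2, with BRD8518 in red and OSM in blue. Points are differences of group means, bars are 95% confidence intervals from the fit, and the times are not drawn to scale. IL6R with BRD8518 climbs to 2.24 at 24 h, JAK2 to 1.25, and OSM takes OSMR to 1.20 and LIFR to -1.06.

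The counts of the 4 members are given here beside the shares of all genes tested. The members were chosen with earlier results of these data known, so a count above such a share is no test of the set. With BRD8518, 0 of 4 passed at 1 h, where 0.255% of genes passed, 1 of 4 at 6 h (IL6R), where 14.5% passed, and 2 of 4 at 24 h (IL6R and JAK2), where 27.7% passed. At 1 h of BRD8518, 38 genes passed, and 760 had an unadjusted p under 0.05, none of them a member. With OSM, 2 of 4 passed at 1 h (OSMR and IL6R), where 2.84% of genes passed, and 3 of 4 at 24 h (OSMR, LIFR and IL6R), where 10.3% passed. The median change of the 4 members was 0.04, 0.27 and 0.70 with BRD8518 at 1 h, 6 h and 24 h, beside 0.02, -0.01 and -0.00 over all genes. With OSM it was 0.23 and 0.41 at 1 h and 24 h, beside 0.01 and 0.01 over all genes. The OSM median at 24 h pools OSMR and IL6R, which rose, with LIFR, which fell. Between DMSO groups of different times 0 of 4 members passed, where 0.00672% (6 h against 1 h), 0.0% (24 h against 1 h) and 0.0% (24 h against 6 h) of genes passed. In those comparisons the unadjusted p was under 0.05 for OSMR (0.16 ± 0.07) and IL6R (0.19 ± 0.09) between 24 h and 1 h.

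The treatments were also compared directly. At 1 h, BRD8518 and OSM differed for OSMR, with group means of 9.37 for BRD8518 and 9.80 for OSM (-0.43 ± 0.07, limma, Benjamini-Hochberg adjusted p = 0.000318), the 1 member of 4 that passed where 2.34% of genes passed. Within letter B, which leaves 1 BRD8518 array, that difference was -0.34 and did not pass (adjusted p = 0.11). IL6R differed by -0.26 ± 0.09 at 1 h (adjusted p = 0.16, 95% confidence interval -0.44 to -0.08), LIFR by 0.13 ± 0.12 and JAK2 by -0.06 ± 0.15. At 24 h all 4 members passed, where 23.2% of genes passed. OSMR averaged 9.39 with BRD8518 and 10.67 with OSM, a difference of -1.27 ± 0.07. The other members were higher with BRD8518: LIFR averaged 7.69 with BRD8518 and 6.48 with OSM (1.20 ± 0.12), IL6R 9.46 and 8.09 (1.37 ± 0.09), and JAK2 7.52 and 6.23 (1.30 ± 0.15). The adjusted p was at most 9.36e-07 in these 4 tests. No groups overlapped in any of them, and the share of all genes without overlap was not counted.

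The effects also differed between times. The OSM effect on OSMR was 0.71 ± 0.10 larger at 24 h than at 1 h (limma, Benjamini-Hochberg adjusted p = 5.25e-05), and that on LIFR was more negative at 24 h (-0.89 ± 0.17, adjusted p = 0.00306). For IL6R the OSM effect grew by 0.50 ± 0.12 (adjusted p = 0.0201). That call was lost without OSM 24 h replicate 1 (0.47), OSM 1 h replicate 3 (0.45), DMSO 24 h replicate 2 (0.46) or DMSO 1 h replicate 1 (0.46), and when all probe sets were tested. These were 3 of 4 members, where 3.37% of genes passed, and JAK2 differed by -0.13 ± 0.22.

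The BRD8518 effect on IL6R grew at each step. It was 0.94 ± 0.13 larger at 6 h than at 1 h (1 of 4 members passed, 6.01% of genes), 1.19 ± 0.13 larger at 24 h than at 6 h (2 of 4 members, 11.1% of genes), and 2.13 ± 0.12 larger at 24 h than at 1 h (2 of 4 members, 17.5% of genes). The adjusted p values were 6.00e-05, 1.15e-06 and 5.38e-11 (limma, Benjamini-Hochberg). Without DMSO 6 h replicate 2 the first and second of these IL6R differences were 1.01 and 1.12. For JAK2 the effect was 1.23 ± 0.22 larger at 24 h than at 1 h (adjusted p = 0.000211) and 1.03 ± 0.22 larger at 24 h than at 6 h (adjusted p = 0.00328). The JAK2 difference between 24 h and 6 h was 1.18 without DMSO 6 h replicate 2, and 0.81 without BRD8518 6 h replicate 2, where it did not pass (adjusted p = 0.054). Between 6 h and 1 h the JAK2 effect differed by 0.21 ± 0.22. OSMR and LIFR passed in none of the 3 comparisons of BRD8518 effects, with differences from -0.18 to 0.36.

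Ordered by group mean, OSMR was lowest in DMSO 1 h (9.30), and the BRD8518 and DMSO groups up to DMSO 24 h (9.46) each overlapped the next. OSM 1 h (9.80) and OSM 24 h (10.67) stood above them without overlap. LIFR ran from OSM 24 h (6.48), apart from all others, through 6 groups between 7.40 and 7.69 that each overlapped the next, to BRD8518 6 h (7.76), whose 2 arrays lay just above the BRD8518 24 h arrays. IL6R ran from DMSO 1 h (7.03) to OSM 1 h (7.40) with overlap between neighbours, then rose without overlap through OSM 24 h (8.09), BRD8518 6 h (8.16) and BRD8518 24 h (9.46). JAK2 had 7 groups from 6.16 to 6.38 that each overlapped the next, and BRD8518 24 h (7.52) apart. Over the 24 arrays the span was 2.54 for IL6R, 1.88 for JAK2, 1.48 for OSMR and 1.30 for LIFR, on the log2 scale.

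Other genes of the gp130 route were followed as lists, by role, chosen with earlier results of these data known. Their counts stand beside the shares of all genes that passed in either direction, which were 0.255%, 14.5% and 27.7% with BRD8518 at 1 h, 6 h and 24 h, and 2.84% and 10.3% with OSM at 1 h and 24 h. Of 11 family ligands listed, 7 were measured, and with BRD8518, 2 rose and 1 fell at 6 h and 3 rose at 24 h (median change 0.18 at 24 h, beside -0.00 over all genes). LIF, the ligand of LIFR, averaged 8.57 with BRD8518 at 6 h, against 6.51 with DMSO (2.05 ± 0.11), and 9.14 at 24 h, against 6.45 with DMSO (2.70 ± 0.10). IL11, which acts through its own receptor and gp130, averaged 8.56 with BRD8518 at 6 h, against 6.41 with DMSO (2.15 ± 0.16), and 9.54 at 24 h, against 6.37 with DMSO (3.16 ± 0.15). With OSM, LIF was the 1 ligand of 7 that passed at 1 h (1.09 ± 0.10), and 0 of 7 passed at 24 h. The OSM transcript itself did not pass in any comparison with DMSO (-0.06 to 0.15). EBI3, a subunit of interleukin 27, was -0.39 ± 0.12 at 6 h and 0.34 ± 0.11 at 24 h of BRD8518, and lost each call without 1 of several arrays.

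Of 8 family receptors listed, 5 were measured, and besides the members these were CNTFR and IL31RA. CNTFR, the receptor of ciliary neurotrophic factor, changed by -0.13 to 0.13 in the 5 comparisons with DMSO, and IL31RA, the partner of OSMR in the interleukin 31 receptor, by -0.03 to 0.15, and neither passed. The gp130 gene IL6ST was not analysed here. All 4 Janus kinases were measured. With BRD8518 at 24 h, 2 of 4 rose, JAK2 and JAK1 (0.50 ± 0.08), where 27.7% of all genes passed, and 0 passed at 1 h or 6 h, where 0.255% and 14.5% did. With OSM at 24 h, where 10.3% passed, JAK3 was the 1 of 4 that rose, averaging 7.03 with OSM and 5.71 with DMSO (1.32 ± 0.10). TYK2 passed in no comparison (-0.15 to 0.04).

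Of 7 STAT genes, 4 were measured. STAT3, the main factor downstream of gp130, rose with OSM at 1 h (0.37 ± 0.08) and 24 h (0.58 ± 0.08) and with BRD8518 at 6 h (0.34 ± 0.08), but at 0.17 did not pass with BRD8518 at 24 h. STAT5A and STAT5B, which lie beside each other in the genome and encode near-identical proteins, each rose by 0.68 with BRD8518 at 24 h (SE 0.14 for STAT5A and 0.13 for STAT5B). STAT4 passed in no comparison. The STAT3 call at 6 h was lost without BRD8518 6 h replicate 1 (0.32) and in a fit of the 6 h arrays alone.

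Of 18 inhibitors and phosphatases of the route, 8 were measured, all of the SOCS family. With OSM, 4 of 8 rose at 1 h (median change 0.43, beside 0.01 over all genes), and 3 rose and 1 fell at 24 h. SOCS3, the feedback inhibitor that binds gp130, averaged 10.23 with OSM at 1 h, against 5.48 with DMSO (4.75 ± 0.14), and 8.77 at 24 h, against 5.30 with DMSO (3.47 ± 0.14). SOCS1, which blocks Janus kinases directly, moved in opposite directions. It was higher with OSM by 1.39 ± 0.13 at 1 h and by 1.41 ± 0.13 at 24 h, and fell by 1.28 on the log2 scale at 6 h and by 1.63 at 24 h with BRD8518. Directly compared at 24 h, SOCS1 averaged 5.97 with BRD8518 and 9.02 with OSM (-3.05 ± 0.13, limma, Benjamini-Hochberg adjusted p = 1.10e-13). CISH, which restrains STAT5, rose with OSM by 1.71 ± 0.09 at 1 h and 0.42 ± 0.09 at 24 h, and SOCS2 by 0.67 ± 0.09 at 1 h. With BRD8518, SOCS6 (1.00 ± 0.14), SOCS3 (0.45 ± 0.14) and SOCS1 were the 3 of 8 past the threshold at 6 h, and SOCS6 (0.51 ± 0.13), SOCS7 (0.51 ± 0.09) and SOCS1 at 24 h. SOCS6 was lower with OSM at 24 h (-0.44 ± 0.13). The calls of SOCS3 at 6 h of BRD8518 and of SOCS6 at 24 h of OSM were each lost without any 1 of several arrays, and SOCS3 and SOCS6 did not pass in the fit of the 6 h arrays alone.

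**Figure D3:**
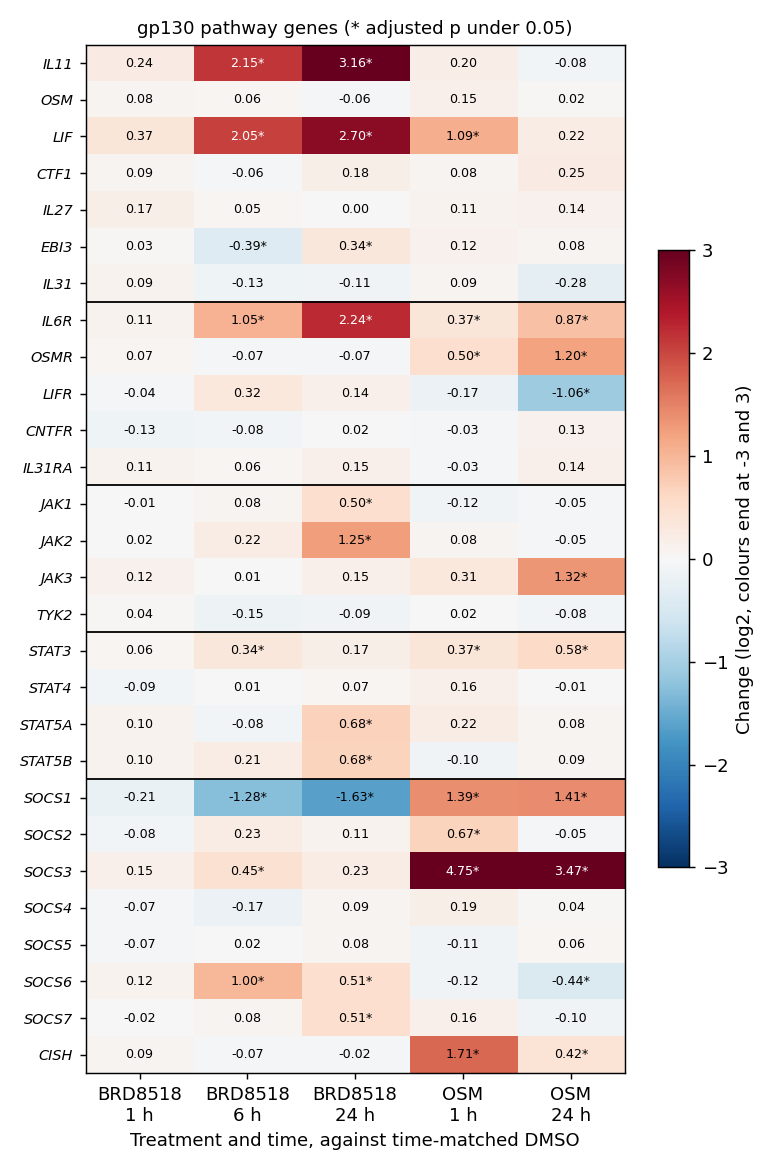
Change against time-matched DMSO (log2, colour and number) of the measured ligands, receptors, Janus kinases, STAT factors and SOCS genes, in 5 blocks divided by lines. Columns are BRD8518 at 1, 6 and 24 h and OSM at 1 and 24 h, an asterisk marks an adjusted p under 0.05, and colours end at -3 and 3. LIF, IL11, IL6R and JAK2 are red under BRD8518 at 24 h, SOCS3 under OSM, and SOCS1 is blue under BRD8518 and red under OSM.

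All 11 listed adaptors and receptor-processing genes were measured. With BRD8518, 2 rose and 2 fell at 6 h, and 5 rose and 2 fell at 24 h. With OSM at 24 h, 3 rose and 1 fell, and 0 passed at 1 h of either. At 6 h of BRD8518, STAM (0.50 ± 0.13) and RHBDF1 (0.42 ± 0.10) rose, and GAB1 (-0.55 ± 0.14) and SOS1 (-0.73 ± 0.18) fell. Each of these 6 h calls was lost in the fit of the 6 h arrays alone. RHBDF2, an inactive rhomboid protein that escorts the sheddase ADAM17, which releases soluble IL6R, rose by 1.56 ± 0.13 with BRD8518 and 0.73 ± 0.13 with OSM at 24 h. Its relative RHBDF1 rose by 1.01 ± 0.09 with BRD8518 at 24 h, and ADAM17 and ADAM10 passed in no comparison. HGS and STAM, which sort receptors at endosomes, rose with BRD8518 at 24 h (0.93 ± 0.09 for HGS and 0.99 ± 0.12 for STAM). The third gene that rose with OSM, HGS (0.28 ± 0.09), lost that call without any 1 of several arrays. GAB1, an adaptor to the MAP kinase and PI3 kinase routes, fell with both at 24 h, by 0.56 with BRD8518 and by 0.97 with OSM. SHC1, another adaptor, rose at 24 h with both, by 0.48 ± 0.07 with BRD8518 and 0.63 ± 0.07 with OSM, and GRB2 fell with BRD8518 (-0.29 ± 0.08).

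Of 31 hepatocyte targets of the route, 22 were measured. The list shares genes such as FGB with the hepatocyte markers. With OSM, 14 rose and 0 fell at 1 h (median change 0.64), and 16 rose and 0 fell at 24 h (median change 0.72). The OSM calls of ORM1 and ITIH3 at 1 h and of MCL1 at 24 h were each lost without some single arrays. LBP, the lipopolysaccharide-binding protein, averaged 10.40 with OSM at 24 h, against 4.70 with DMSO (5.70 ± 0.13), and HP, the haemoglobin scavenger haptoglobin, 11.33 against 9.52 (1.81 ± 0.10). With BRD8518, 3 rose at 1 h, 6 rose at 6 h, and 5 rose and 7 fell at 24 h (median change 0.06). The 3 at 1 h were the transcription factor genes JUNB (1.09 ± 0.12), BCL6 (0.77 ± 0.08) and MYC (0.43 ± 0.06), and MYC did not pass within letter B (0.32). The 5 that rose at 24 h were PIM1, a survival kinase gene (1.88 ± 0.12), the protease inhibitor gene TIMP1 (1.51 ± 0.16), the survival gene MCL1 (1.07 ± 0.13), JUNB (0.80 ± 0.12) and MYC (0.68 ± 0.06). The 7 that fell encode secreted plasma proteins, among them CP, the copper carrier ceruloplasmin, which fell by 1.13, HP, which fell by 0.80, and the fibrinogen chain FGG, which fell by 0.66. Another of the 7, FGL1, lost its call without some single arrays. The hepatocyte markers moved in the same 24 h arrays. With BRD8518, 7 of 12 were lower and 0 higher, and their mean level per array ran from 10.73 to 10.85, against 11.12 to 11.22 on DMSO arrays. With OSM at 24 h, 6 of 12 were lower and 1, the acute phase gene FGB, was higher, at 10.96 to 11.04 per array. The mean level of 13 measured markers of other cell types, of 22 listed, was 5.95 to 6.06 with BRD8518, 5.96 to 6.19 with OSM and 5.87 to 5.99 with DMSO at 24 h. Among them CD68, a macrophage and lysosome marker (1.19 ± 0.08), and KRT19, a bile duct keratin (0.97 ± 0.10), rose with BRD8518. LYVE1, an endothelial hyaluronan receptor (2.70 ± 0.16), and CD68 (0.34 ± 0.08) rose and PECAM1 (-0.43 ± 0.10) fell with OSM. Their part in the changes of the 4 genes was not tested.

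LIFR and OSMR are close neighbours on chromosome 5. In the order of gene starts the RefSeq table lists 7 other genes from LIFR to OSMR, 3 of which overlap LIFR. The 1 of the 7 that was measured, MIR3650, is among those 3, and its probe set differed by 0.21 with OSM at 24 h (adjusted p = 0.41), where LIFR fell. The 5 measured genes on either side of LIFR and of OSMR come to 11 besides the pair, MIR3650 included. In the 5 comparisons with DMSO, 0 of these 11 passed. Over all genes 0.255%, 14.5% and 27.7% passed with BRD8518 at 1 h, 6 h and 24 h, and 2.84% and 10.3% with OSM at 1 h and 24 h. With OSM at 24 h the 11 ranged from -0.39 (FYB1) to 0.22 (PTGER4). OSMR overlaps RICTOR in the table, which was not analysed here.

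**Figure D4:**
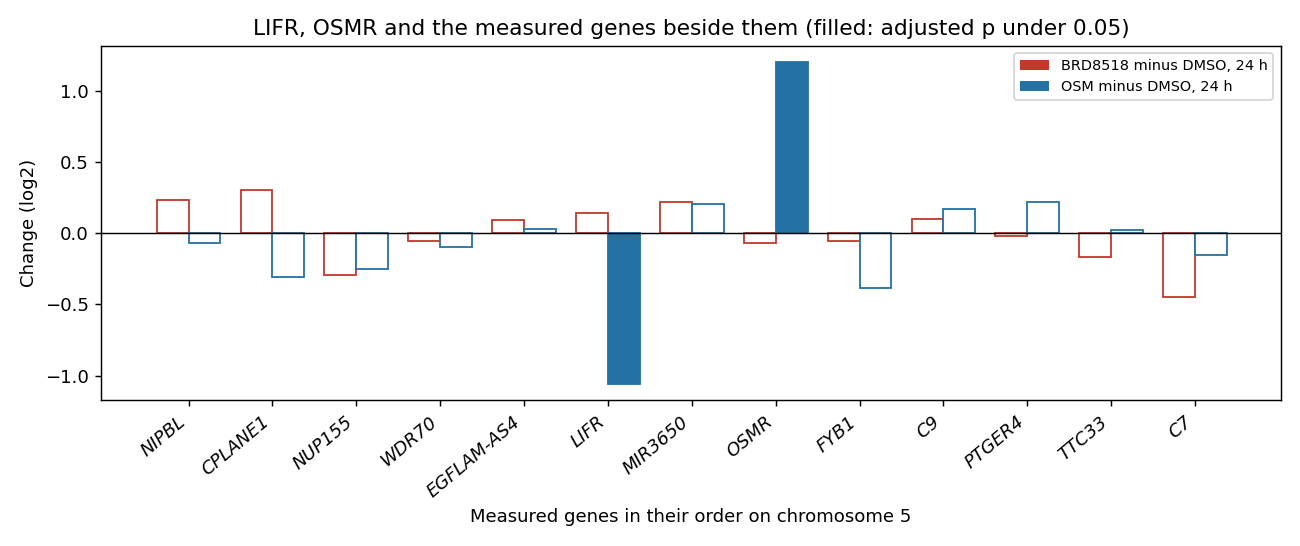
Change at 24 h against DMSO (log2) for LIFR, OSMR and the 11 measured genes around them, in their order on chromosome 5 and not to scale, with BRD8518 in red and OSM in blue. Filled bars have an adjusted p under 0.05. The filled bars are LIFR at -1.06 and OSMR at 1.20 with OSM.

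Around JAK2 on chromosome 9, 2 of 10 measured neighbours passed with BRD8518 at 6 h and at 24 h, where 14.5% and 27.7% of all genes passed. RCL1, an RNA-processing gene, rose by 0.57 at 6 h and 0.79 at 24 h, and CDC37L1, a co-chaperone gene, by 0.58 at 6 h and 0.38 at 24 h. INSL6, which overlaps JAK2 in the table, did not pass (-0.09 at 24 h). With OSM at 24 h the lipid phosphatase gene PLPP6 was 0.29 higher (adjusted p = 0.041), the 1 of 10 that passed where 10.3% of genes did. Around IL6R on chromosome 1, UBAP2L was -0.31 with BRD8518 at 24 h, the 1 of 10 neighbours that passed where 27.7% of genes did. The precursor probe set MIR190B was 0.37 with OSM at 1 h, the 1 of 10 that passed where 2.84% of genes did.

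Likeness was measured as Pearson's r over the 24 arrays, which share group means, as a description. The order depends on the measure. Ranked by Spearman's rho instead, the genes named here stood between 7 (AGTPBP1 for JAK2) and 344 (EPS8L3 for IL6R). For LIFR, CMSS1, CAMK2D and NET1 ranked 188, 107 and 101 by rho. OSMR was most like NRP1, a semaphorin and VEGF co-receptor (r = 0.984), LYVE1 (r = 0.961) and the complement gene C3 (r = 0.952). NRP1 changed by 0.65 ± 0.08 with OSM at 1 h and 1.87 ± 0.08 at 24 h, and by -0.12 to 0.08 with BRD8518. LIFR was most like CMSS1 (r = 0.956), the calcium-dependent kinase gene CAMK2D (r = 0.926) and the RhoA exchange factor gene NET1 (r = 0.903). They fell by 1.36, 0.61 and 0.67 with OSM at 24 h and did not pass with BRD8518. IL6R was most like SFN, the epithelial 14-3-3 sigma gene (r = 0.979), EPS8L3 (r = 0.977) and C6orf132 (r = 0.973). SFN changed by 0.65 and 1.53 with BRD8518 at 6 h and 24 h and by 0.86 with OSM at 24 h. JAK2 was most like the zinc-finger gene ZNF529 (r = 0.959), the tubulin-trimming enzyme gene AGTPBP1 (r = 0.957) and the myosin gene MYO6 (r = 0.957), which rose by 0.54, 0.72 and 1.06 with BRD8518 at 24 h.

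Among the members, OSMR and LIFR had r = -0.88 and Spearman's rho = -0.42 over the 24 arrays, with the OSM 24 h arrays apart in both genes. The r without those arrays was not computed. Over the residuals from group means, OSMR and LIFR had r = 0.61. IL6R and JAK2 had r = 0.81 and rho = 0.36, with the BRD8518 24 h arrays apart in both, and r = -0.25 over the residuals. The genes most like each member over the residuals were MIR550A2, LINC00616 and LOC100505918 for OSMR (r = 0.898 to 0.806), TRIQK, TNRC6B and MIR1284 for LIFR (0.924 to 0.908), APH1A, THAP11 and CNTNAP1 for IL6R (0.912 to 0.884), and STAG1, MGA and BRWD1 for JAK2 (0.905 to 0.883). None of these 12 was among the 3 most alike over the levels. All residual values here include DMSO 6 h replicate 2, the array that stood apart. In its group it was lowest for OSMR (9.30), LIFR (7.08) and JAK2 (5.69) and highest for IL6R (7.33). How far the residual r values rest on it was not tested.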

How the data were processed

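RNA from HepG2 cells was measured on Affymetrix whole-transcript arrays, 24 in 8 groups. Cells were plated at 10000 per well, and 6 wells per treatment were used, per the labels' protocols. The deposited values are log2 expression levels that the authors made by RMA with oligo, per the submitters' processing notes, which as used here name no versions. Values ran from 0.913 to 13.7, and array medians from 4.89 to 4.95, so nothing was rescaled. Depth does not apply to arrays, and their number limits the precision.

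Of 53617 probe sets, 16098 carried 1 gene symbol and 37519 were unnamed here. The probe set with the highest mean stood for each gene. The 4 members and the gene lists were chosen with earlier results of these data known. limma 3.58.1 in R 4.3.3 fitted 1 mean per group over all 24 arrays, with Benjamini-Hochberg adjustment within each of 14 comparisons and a threshold of 0.05. The total degrees of freedom of the tests were 21.3, with 5.30 of them from the moderation. The tests were checked on simulated data. Genes named were the members, the 3 most like each, list genes past the threshold (up to 6 per direction) and the 5 measured genes on either side. Alternatives covered dim genes, centring, quantile normalization, moderation, array weights, probe sets, the position letter, the samples fitted and each array left out. Motifs were searched in RefSeq start windows, and figures were drawn with matplotlib 3.10.9. No source used here names the genome build of the probe sets.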

Additional observations from a re-analysis of the deposited data

Results flagged for a closer look

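Of 16 treatment effects compared between times, 8 differed past the threshold by the test of the difference itself (limma, Benjamini-Hochberg). Over all genes 3.37% passed for OSM at 24 h minus 1 h. For BRD8518, 17.5% passed at 24 h minus 1 h, 11.1% at 24 h minus 6 h and 6.01% at 6 h minus 1 h. The BRD8518 comparisons of a gene share arrays, so the 16 are not independent. With OSM, the effect at 24 h minus that at 1 h was 0.71 for OSMR, -0.89 for LIFR and 0.50 for IL6R. With BRD8518, the IL6R effect differed by 2.13 between 24 h and 1 h, by 1.19 between 24 h and 6 h and by 0.94 between 6 h and 1 h. The JAK2 effect of BRD8518 differed by 1.23 between 24 h and 1 h and by 1.03 between 24 h and 6 h. Position letters differed between the times, and at 1 h BRD8518 replicates 2 and 3 carried letter C while all DMSO arrays carried letter B. With the letter as a fixed term the BRD8518 effect at 24 h minus 1 h was 2.20 for IL6R and 1.19 for JAK2, and that at 6 h minus 1 h was 0.96 for IL6R. In the 4 gene-wise checks of the DMSO 6 h arrays, 0 values stood far enough from the others to be singled out, although replicate 2 held the lowest LIFR and JAK2 values there.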

How the results depend on the processing

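No paired analysis was possible because the replicate numbers follow sample order and pair nothing. Of 396 values recomputed for the 21 member results past the threshold, 384 stayed past it, 12 lost it and 0 changed sign. Among 620 values for the 35 results not past it, 2 passed and 36 changed sign. The difference of OSM effects on IL6R missed the threshold when all probe sets were tested (0.50, adjusted p = 0.054). The 1 h difference of OSMR between BRD8518 and OSM missed it with the position letter as a fixed term and within letter B (-0.34 in both). IL6R between BRD8518 and OSM at 1 h passed with array weights (-0.24, adjusted p = 0.026). Near-zero results changed sign. With the letter fixed, LIFR with BRD8518 at 1 h was 0.16 (0.16 within letter B too), LIFR's BRD8518 effect at 24 h minus 1 h was -0.0416, and JAK2 in DMSO at 24 h against 1 h was -0.0340. With quantile normalization, OSMR's BRD8518 effect at 24 h minus 6 h was 0.0179 and JAK2 in DMSO at 24 h against 1 h was -0.0193. With array weights these 2 were 0.0214 and -0.0255, JAK2 with BRD8518 at 1 h was -0.0175, DMSO at 6 h against 1 h was 0.0223 for LIFR and 0.0140 for JAK2, and DMSO at 24 h against 6 h was -0.0244 for LIFR and -0.0396 for JAK2. Leaving out 1 array at a time gave IL6R with OSM at 1 h 0.34 to 0.42, the difference of OSM effects on IL6R 0.45 to 0.55, LIFR with BRD8518 at 6 h 0.20 to 0.39, and OSMR with BRD8518 at 6 h -0.153 to 0.0191. For JAK2 it gave 0.81 to 1.24 for the BRD8518 effect at 24 h minus 6 h, -0.00910 to 0.42 for 6 h minus 1 h, -0.0787 to 0.15 for BRD8518 at 1 h and -0.13 to 0.0169 for BRD8518 against OSM at 1 h. JAK2 ran from -0.0166 to 0.21 with OSM at 1 h, from -0.13 to 0.0440 with OSM at 24 h, from -0.21 to 0.0435 in DMSO at 6 h against 1 h, from -0.10 to 0.13 at 24 h against 1 h and from -0.0430 to 0.19 at 24 h against 6 h. LIFR ran from -0.14 to 0.0864 with BRD8518 at 1 h, from -0.0900 to 0.03 in DMSO at 24 h against 1 h and from -0.0201 to 0.17 at 24 h against 6 h, and OSMR's BRD8518 effect at 24 h minus 6 h from -0.0866 to 0.0852. The causes were not tested. Counts over all genes moved more. With BRD8518 they were 38 at 1 h (15 to 81) and 4122 at 24 h (3514 to 5585). At 6 h of BRD8518 they were 2155, and 452 in the fit of the 6 h arrays alone. They were 3345 without DMSO 6 h replicate 2 and 3466 at most, with array weights. With OSM they were 423 at 1 h (274 to 1125) and 1526 at 24 h (1107 to 3068). BRD8518 against OSM gave 349 at 1 h (183 to 934) and 3458 at 24 h (2741 to 5286). These are counts of genes. With all 53617 probe sets tested instead, 4008 probe sets passed at 6 h and 7370 at 24 h of BRD8518. For BRD8518 against OSM at 24 h, 5845 probe sets passed.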

Other observations

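Receptors outside the gp130 family were also counted, in lists chosen with earlier results of these data known. Of 38 other cytokine receptors listed, 18 were measured. With BRD8518, 3 rose and 1 fell at 6 h, and 2 rose and 5 fell at 24 h, with 0 past the threshold at 1 h. Over all genes 14.5%, 27.7% and 0.255% passed at 6 h, 24 h and 1 h. With OSM, 2 rose at 1 h, and 4 rose and 2 fell at 24 h, where 2.84% and 10.3% of all genes passed. IL4R, the interleukin 4 receptor chain, changed by 1.08 ± 0.11 at 6 h and 1.38 ± 0.10 at 24 h with BRD8518, and by 1.09 ± 0.10 at 1 h and 1.62 ± 0.10 at 24 h with OSM. IFNGR1, the ligand-binding chain of the interferon gamma receptor, changed with OSM by 1.07 ± 0.12 at 1 h and 1.30 ± 0.12 at 24 h. PRLR, the prolactin receptor, fell by 1.72 with BRD8518 and by 1.90 with OSM at 24 h. IL17RB fell by 1.10 with BRD8518 and by 0.50 with OSM at 24 h. CSF3R, the receptor of granulocyte colony-stimulating factor, was -0.59 ± 0.10 with BRD8518 and 0.33 ± 0.10 with OSM, a call the OSM comparison lost without some single arrays.

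Of 23 receptor tyrosine kinases listed, 20 were measured. With BRD8518, 3 rose at 6 h, beside 14.5% of all genes past the threshold, and 6 rose and 4 fell at 24 h, beside 27.7%. With OSM, 1 rose at 1 h, beside 2.84%, and 1 rose and 5 fell at 24 h, beside 10.3%. AXL, the receptor of GAS6, changed by 0.85 ± 0.10 at 6 h and 3.42 ± 0.10 at 24 h with BRD8518, and by -0.33 ± 0.10 with OSM at 24 h. EGFR, the epidermal growth factor receptor, changed by 1.90 ± 0.11 with BRD8518 and -0.36 ± 0.11 with OSM at 24 h, and MET, the receptor of hepatocyte growth factor, by 0.73 ± 0.11 with BRD8518. EPHA2, an ephrin receptor, changed by 1.23 ± 0.13 at 6 h and 1.11 ± 0.12 at 24 h with BRD8518 and by 0.89 ± 0.12 at 1 h with OSM. The OSM call of EGFR at 24 h was lost without any 1 of the DMSO and OSM arrays of that time. It was also lost with median centring and quantile normalization. The OSM calls at 24 h of AXL and of TYRO3, the 1 that rose, were each lost without any 1 of several arrays.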
